A study of Mus musculus with 17 samples.

Results

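Keratins are the intermediate filament proteins of epithelial cells. The genes described here are the 53 whose symbol is Krt followed by a number and at most 1 letter, out of 55450 genes with bulk values. A further gene with such a symbol, Krt74, was listed at 0 TPM in all bulk libraries and could not be named from the single-cell tables, so it was left out. Of the 53, 28 were type I and 24 type II keratins, and 1, Krt88, was in neither list. The type I genes lay on chromosome 11 apart from Krt18, and the type II genes lay on chromosome 15.

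Bulk RNA-seq was available for 14 libraries of cell lines grown from tumor-bearing organs of female FVB/NJ mice carrying the MMTV-PyMT transgene, in which a mouse mammary tumor virus promoter drives the polyoma middle T antigen in mammary epithelium. The mice were 10 to 12 weeks old, and no group received a treatment. The 7 groups were the primary tumor of the mammary fat pad (MFP), for which the labels give no CD44 status, and CD44low and CD44high cells derived from lung, lymph node (LN) and bone marrow (BM), all sorted as EpCAMhigh. Each group had 2 libraries, which were clonal isolates from different mice, so a group stands for 2 clones after weeks of culture. Whether libraries of different groups share a mouse is not given in the sources used here. In addition, 1 single-cell library each was available here of lung-derived CD44high (lungH), lung-derived CD44low (lungL) and LN-derived CD44high cells (lymphH). The study's methods state 2 replicates for each single-cell sample. The labels name both lung libraries as replicate 1 and give no replicate number for the lymphH library.

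Every keratin filament is built from pairs of 1 type I and 1 type II protein, and a keratin without a partner is degraded. Krt8 and Krt18 are the pair of simple epithelia such as the luminal layer of the mammary gland, where Krt7 and Krt19 accompany them. Krt5 and Krt14 are the pair of basal and myoepithelial cells, Krt6 and Krt16 are induced in activated or wounded epithelium, Krt1 and Krt10 mark the layers above the basal cells in epidermis, and a large group is used in hair and its root sheath.

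Short stretches of the promoters of tested keratins are shown because the genes turned out to move in different directions although most of their promoters held the same letters. The 250 bases before the start were searched on both strands for 7 patterns in 32851 RefSeq windows of GRCm38.p6, of which 37 belonged to 36 of the 53 keratins. The pattern CACCTG, the core of an E-box, was in 6 of the 7 windows of tested keratins, in 37.8% of all keratin windows and in 17.2% of all windows. It was picked for display after the matches were counted. In the lines that follow, for 5 of these genes, each stretch runs 5′ to 3′ on the strand of its gene, and the capitals mark CACCTG.
Krt18, chr15:102027990-102028019, plus strand: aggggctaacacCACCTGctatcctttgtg
Krt7, chr15:101412347-101412376, plus strand: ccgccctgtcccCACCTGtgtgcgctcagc
Krt23, chr11:99493335-99493364, minus strand: agatctgctaccCACCTGgtggcctgggcc
Krt10, chr11:99389399-99389428, minus strand: agcaaagcctagCACCTGtgagacacgccc
Krt79, chr15:101940334-101940363, minus strand: gcccctccctctCACCTGtggtaatcacag

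Krt16 and Krt80 had no window. The start that RefSeq gives for Krt7 lies inside the Krt7 gene as GENCODE draws it, so that stretch is before the RefSeq start but not before the GENCODE gene. The other patterns were in fewer windows of tested keratins. TATAAA was in 1 of the 7, but in 45.9% of all keratin windows beside 12.4% of all windows. GGGCGG was in 1 (5.41% of keratin and 32.7% of all windows), TGANTCA in 0 (5.41% and 6.75%), GCCNNNGGC in 2 (13.5% and 13.7%), CCACCC in 4 (35.1% and 28.1%) and ACCGGT in 0 (2.70% and 1.86%). These matches describe letters only and say nothing on whether a factor binds there.

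The TPM values of the bulk table are per transcript length and have 1 common total over genes, and the methods state only a minimum read depth, so the number of reads behind each value is unknown. Between 11508 and 13052 genes per library had at least 1 TPM. The sort markers did not all follow the labels. Epcam stood between 315 and 941 TPM in the 10 MFP, LN and BM libraries but at 0 in both lung CD44low libraries and at 0.23 and 0.86 TPM in the lung CD44high libraries, although all cells were sorted as EpCAMhigh. Cd44 was highest in MFP, at 399.9 and 209.7 TPM. In LN it was at 147 and 82.7 TPM in CD44low and at 49.0 and 52.3 TPM in CD44high cells, so the libraries labelled CD44high were the lower ones, without overlap, by -1.11 ± 0.44 on the log2 scale (adjusted p 0.423). In BM and lung the CD44 classes overlapped in Cd44 and none was called (adjusted p 0.928 and 1). In all bulk values, fewer keratin-positive cells and less keratin RNA per cell cannot be told apart.

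Keratin transcripts were abundant in MFP, lower in LN and BM, and close to 0 in lung. The summed TPM of all 53 genes was 6057 and 5185 in MFP, 1139.8 to 3309.6 over the 8 LN and BM libraries, 11.01 and 13.5 in lung CD44low cells, and 20.6 and 93.5 in lung CD44high cells. As a share of all TPM this was 0.606% and 0.519% in MFP, 0.114% to 0.331% in LN and BM, and 0.00110% to 0.00935% in lung. No lung library reached the lowest of the other 10. Outside the lung, 97.8% to 99.8% of the keratin TPM came from Krt7, Krt8, Krt14 and Krt18. In lung CD44high cells the same 4 genes gave 75.8% and 92.7%, and in lung CD44low cells 19.2% and 17.5%.

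**Figure D1:**
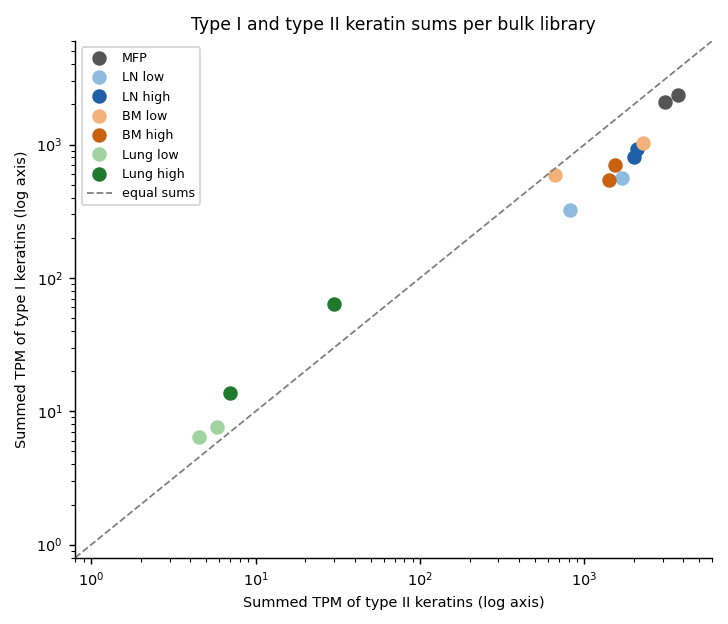
Summed TPM of type I keratins (vertical, log axis) against type II keratins (horizontal, log axis) in each bulk library, coloured by group, with a dashed line where both sums are equal. The 10 MFP, LN and BM libraries sit below the line and the 4 lung libraries above it. The lung CD44low sums are mostly Krt10 and Krt80.

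The balance of type I and type II transcripts also differed by organ, as a description without a test. The ratio of summed type I to summed type II TPM ran from 0.330 to 0.889 over the 10 MFP, LN and BM libraries, with a median of 0.446, so type II transcripts were in excess in each of them. In the 4 lung libraries it ran from 1.32 to 2.10. In lung CD44low cells the type I sums of 6.44 and 7.66 TPM were mostly Krt10 (4.85 and 5.08 TPM). Their type II sums of 4.5 and 5.81 TPM were mostly Krt80 (3.67 and 5.35 TPM). The ratio there is thus of low keratins and does not describe the pair Krt8 and Krt18. Krt18 stood at 0.334 to 1.10 times Krt8 outside the lung, where the second library of BM CD44low cells alone was above 1. In the lung CD44high libraries Krt18 stood at 1.92 and 2.12 times Krt8.

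Of the 53 keratins, 9 had at least 1 TPM in at least 2 libraries and were tested on the log2(TPM + 1) scale with limma, and a call needed a log2 difference beyond 2 in either direction together with an adjusted p (Benjamini-Hochberg, over the 15348 genes tested) below 0.05. All comparisons with MFP share the same 2 MFP libraries. In LN CD44low cells 2 of 9 tested keratins were called, both lower, while 4.79% of all tested genes were called. In LN CD44high cells 2 were called, both lower, against 6.12% of all genes. In BM CD44low cells 3 were called, 2 lower and 1 higher, against 7.16%, and in BM CD44high cells likewise 3, 2 lower and 1 higher, against 7.67%. In lung CD44low cells 6 were called against 18.8% of all genes, of which 5 were lower against 7.62%. In lung CD44high cells 5 were called, all lower, against 13.5% of all genes called and 8.03% called lower.

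Since a keratin could enter the test through the group in which it was high, these counts describe the 9 and not the family. The median difference over the 9 was -1.36 in LN CD44low cells, -1.11 in BM CD44low cells and -1.22 in BM CD44high cells, where the medians of all genes were -0.18, -0.04 and -0.34. In the other 3 groups the median fell on a gene listed at 0 in 1 of the groups and is not given. When libraries were rescaled by their median ratio, the share of calls that were higher moved from 39.9% to 58.6% over all genes in LN CD44high cells and from 47.4% to 64.9% in BM CD44high cells, and the keratin calls became 1 higher and 1 lower in the former and stayed at 1 higher and 2 lower in the latter.

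**Figure D2:**
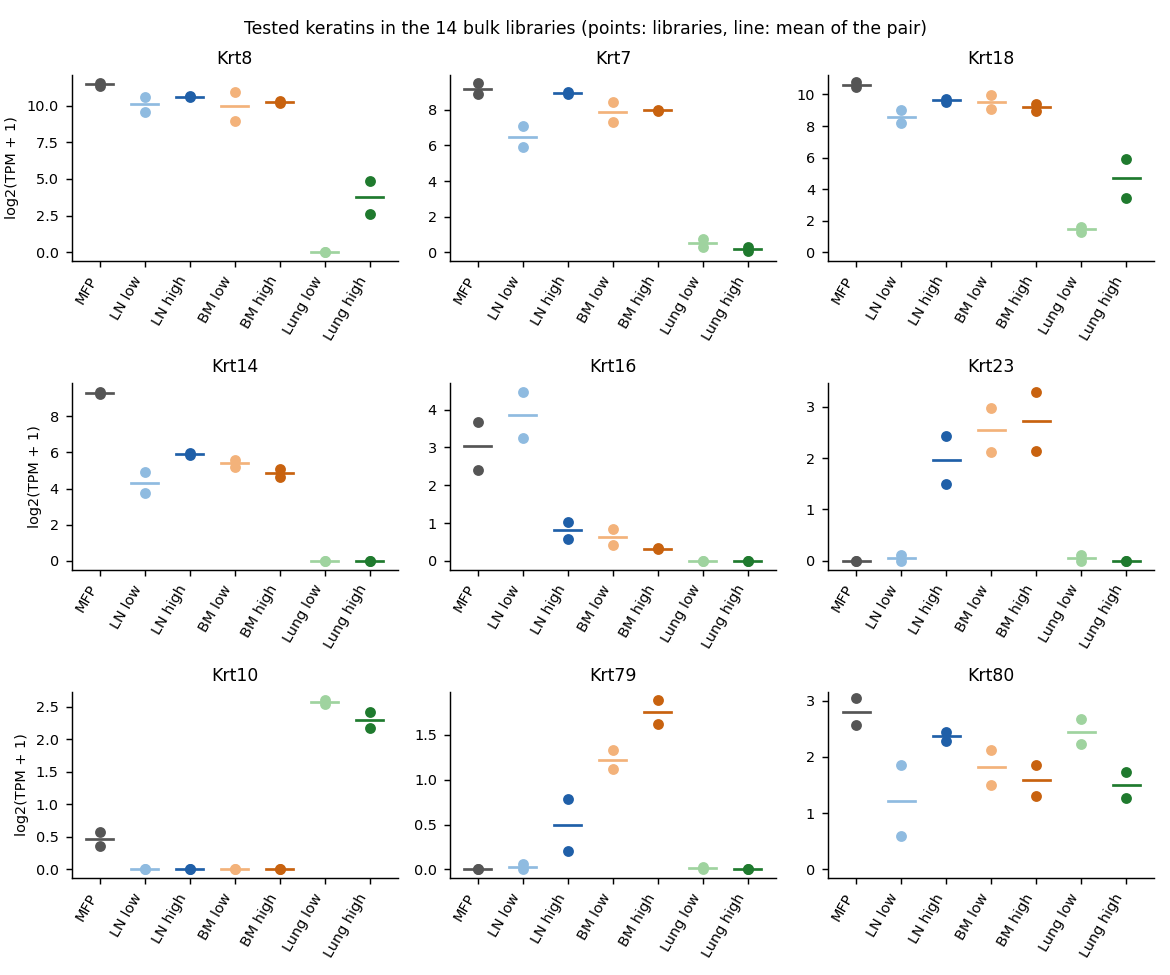
log2(TPM + 1) of the 9 tested keratins in the 14 bulk libraries, with a point for each library and a line at the mean of each pair. Krt8, Krt18, Krt7 and Krt14 are lower in the 4 lung libraries than in any other, with the second lung CD44high library still at 58.9 TPM for Krt18 and 27.8 TPM for Krt8, Krt10 is highest there, and Krt23 and Krt79 are highest in BM.

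Krt8 (ENSMUSG00000049382.10, chr15:101996698-102004482) was the most abundant keratin in 9 of the 10 libraries outside the lung, the second BM CD44low library having more Krt18. It was at 2966 and 2631 TPM in MFP, 756 and 1564 in LN CD44low, 1624 and 1505 in LN CD44high, 1926 and 498 in BM CD44low, and 1280.0 and 1166 TPM in BM CD44high cells. It was listed at 0 in both lung CD44low libraries and stood at 5.26 and 27.8 TPM in lung CD44high cells. Both MFP libraries were above all others, the 8 LN and BM libraries overlapped each other, and the lung libraries were far below. Among all genes Krt8 ranked 27 and 35 by TPM in MFP and between 78 and 326 in LN and BM.

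Against MFP, the fitted log2 differences of Krt8 were -1.36 ± 0.72 (SE) in LN CD44low, -0.84 ± 0.72 in LN CD44high, -1.51 ± 0.72 in BM CD44low and -1.19 ± 0.72 in BM CD44high cells. None of these passed the test, with adjusted p from 0.169 to 0.454, although the groups did not overlap MFP, and the lowest 95% bound among them was -3.12. In lung CD44high cells the difference was -7.70 ± 0.72 (adjusted p 3.09e-05). In lung CD44low cells Krt8 was called lower with an adjusted p of 9.58e-07, and no fold is given because it was listed at 0. Transcripts of Krt8 match the pseudogene Krt8-ps at 98.6% over 941 bases, and that pseudogene reached at most 19.2 TPM, so reads could be split between them.

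Krt18 (ENSMUSG00000023043.7, chr15:102028180-102032027), the type I partner of Krt8, was likewise highest in MFP and lowest in the lung. It was at 1761 and 1414 TPM in MFP, 287 and 522 in LN CD44low, 853 and 743 in LN CD44high, 979 and 548 in BM CD44low, and 662 and 504 TPM in BM CD44high cells. In the lung it was at 1.42 and 2.11 TPM in CD44low and 10.1 and 58.9 TPM in CD44high cells, so it was still detected where Krt8 was listed at 0. The lung groups did not overlap each other or any other group.

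The largest fitted difference of Krt18 outside the lung, -2.02 ± 0.65 in LN CD44low cells, missed the threshold (adjusted p 0.0683), and those in LN CD44high and in both BM groups had adjusted p from 0.128 to 0.313. Krt18 fell by 9.17 ± 0.65 on the log2 scale in lung CD44low cells (adjusted p 2.21e-06) and fell by 5.94 ± 0.65 in lung CD44high cells (adjusted p 8.42e-05).

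Krt7 (ENSMUSG00000023039.17, chr15:101411043-101430313), a type II keratin of glandular and ductal epithelium, was at 724 and 466 TPM in MFP, 59.1 and 133 in LN CD44low, 465 and 505 in LN CD44high, 345 and 159 in BM CD44low, and 255 and 243.5 TPM in BM CD44high cells. In the lung it was at 0.69 and 0.25 TPM in CD44low and 0.22 and 0.06 TPM in CD44high cells. LN CD44high cells overlapped MFP, and LN CD44low cells were below all other groups outside the lung. Krt7 was lower than in MFP in LN CD44low cells by -2.70 ± 0.43 (adjusted p 0.00232), a call lost when only these 2 groups entered the fit. In LN CD44high cells the difference was -0.26, with a 95% interval from -1.22 to 0.71. It differed from MFP by -8.64 ± 0.43 in lung CD44low (adjusted p 1.81e-07) and -8.998 ± 0.43 in lung CD44high cells (adjusted p 3.83e-07).

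Krt23 (ENSMUSG00000006777.7, chr11:99477974-99493137), a type I keratin of epithelial cells, was low, and it ran opposite to Krt8 only between MFP and BM or LN CD44high cells. It was listed at 0 in both MFP libraries, stood at 0 and 0.08 TPM in LN CD44low, 4.36 and 1.81 in LN CD44high, 6.83 and 3.33 in BM CD44low and 8.81 and 3.42 TPM in BM CD44high cells, and did not pass 0.09 TPM in the lung. BM and LN CD44high cells were therefore above MFP in every library. It was called higher than MFP in BM CD44low (adjusted p 0.00212) and BM CD44high cells (adjusted p 0.00131), the former not when only the 2 groups were fitted, and it missed the fold limit in LN CD44high cells (adjusted p 0.00854). No fold is given against the 0 in MFP.

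Krt19 and Krt20, the remaining simple keratins, did not reach the level for testing. Krt19, which usually accompanies Krt8 and Krt18 in luminal cells, was at most 0.08 TPM in any library, and Krt20 at most 0.38 TPM.

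**Figure D3:**
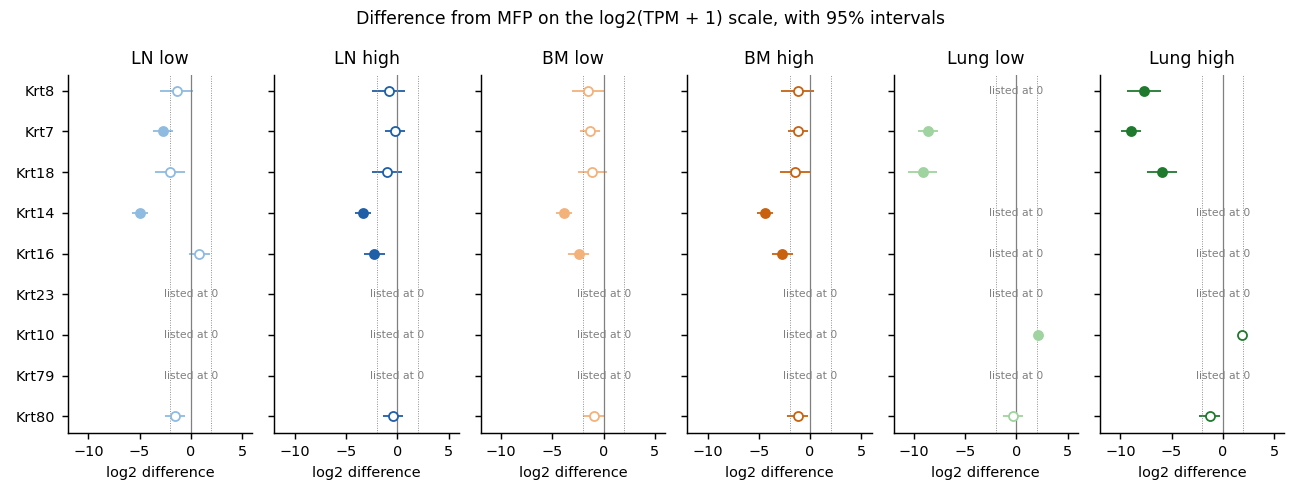
Difference from MFP on the log2(TPM + 1) scale (horizontal) for the 9 tested keratins in each of the 6 groups, with 95% intervals from limma, filled points for calls, and dotted lines at -2 and 2. Genes listed at 0 in either group are marked and carry no point, and Krt14 lies left of -2 in all 4 LN and BM groups.

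Krt14 (ENSMUSG00000045545.8, chr11:100203162-100207548), the type I keratin of basal cells, was called lower than MFP in all 6 groups. It was at 594 and 655 TPM in MFP, 12.6 and 28.8 in LN CD44low, 62.4 and 57.1 in LN CD44high, 47.1 and 36.1 in BM CD44low and 24.3 and 33.2 TPM in BM CD44high cells. It was listed at 0 in all 4 lung libraries. Each of the 12 organ-derived libraries was below both MFP libraries, with no overlap.

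Krt14 was lower, with log2 differences of -4.96 ± 0.34 in LN CD44low (adjusted p 8.37e-06), -3.36 ± 0.34 in LN CD44high (adjusted p 9.52e-05), -3.89 ± 0.34 in BM CD44low (adjusted p 3.73e-05) and -4.41 ± 0.34 in BM CD44high cells (adjusted p 1.50e-05). It was called lower in lung CD44low (adjusted p 2.00e-08) and lung CD44high cells (adjusted p 9.16e-08), with no fold given. All 6 calls held without any 1 of the 14 libraries and under each other processing tried. Relative to Krt18, Krt14 stood at 0.337 and 0.463 in MFP and at 0.0367 to 0.0769 over the 8 LN and BM libraries. Krt5, its usual type II partner, was at most 0.06 TPM in any library, so Krt14 was abundant in MFP while Krt5 was not.

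Krt16 (ENSMUSG00000053797.10, chr11:100246091-100248902), a type I keratin of activated epithelium, was low everywhere. It was at 4.31 and 11.8 TPM in MFP, 21.3 and 8.56 in LN CD44low, 1.04 and 0.50 in LN CD44high, 0.78 and 0.34 in BM CD44low and 0.26 and 0.24 TPM in BM CD44high cells, and it was listed at 0 in the lung. LN CD44low cells overlapped MFP, and all other groups were below both. Krt16 was lower, with log2 differences of -2.24 ± 0.46 in LN CD44high (adjusted p 0.00659), -2.42 ± 0.46 in BM CD44low (adjusted p 0.00439) and -2.72 ± 0.46 in BM CD44high cells (adjusted p 0.00205).

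Krt16 was called lower in lung CD44low (adjusted p 0.000485) and CD44high cells (adjusted p 0.000653) as well. Without the second MFP library, the higher of that pair, the Krt16 difference in LN CD44high against MFP was -1.60 and that in BM CD44low against MFP was -1.78, and neither was called. The LN CD44high call was also lost without the second LN CD44high library, at -2.02, and after rescaling by the median ratio, at -1.89. With only the groups compared in the fit, neither the LN CD44high nor the BM CD44low call was made. Of the type II partners of Krt16, Krt6a reached 1.15 TPM in 1 MFP library and Krt6b at most 0.07 TPM. Krt17, also induced in activated epithelium, was at most 0.44 TPM.

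Krt10 (ENSMUSG00000019761.10, chr11:99385254-99389364), the type I keratin of differentiating epidermis, was the exception in the lung. It was at 0.28 and 0.49 TPM in MFP, listed at 0 in all 8 LN and BM libraries, and at 4.85 and 5.08 TPM in lung CD44low and 3.51 and 4.36 TPM in lung CD44high cells. Every lung library was above every other library. Krt10 rose by 2.11 ± 0.17 on the log2 scale against MFP in lung CD44low cells (adjusted p 5.02e-06). In lung CD44high cells the difference of 1.83 ± 0.17 was below the fold limit (adjusted p 2.50e-05). Krt1, its usual partner, was listed at 0 in all libraries.

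Krt79 (ENSMUSG00000061397.8, chr15:101929332-101940324), a type II keratin of the hair canal, was listed at 0 in MFP. It was at 0.04 and 0 TPM in LN CD44low, 0.72 and 0.15 in LN CD44high, 1.51 and 1.17 in BM CD44low and 2.70 and 2.08 TPM in BM CD44high cells, and at most 0.02 TPM in the lung. All 4 BM libraries were above the other 10. Its comparison with MFP passed the adjusted p in BM CD44low (0.00201) and BM CD44high cells (0.000205) but not the fold limit.

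Krt80 (ENSMUSG00000037185.9, chr15:101347444-101370162), a type II keratin found near cell junctions in many epithelia, stayed between 0.51 and 7.22 TPM in all 14 libraries. It was at 7.22 and 4.94 TPM in MFP, 2.62 and 0.51 in LN CD44low, 3.86 and 4.47 in LN CD44high, 1.83 and 3.38 in BM CD44low, 1.48 and 2.63 in BM CD44high, 3.67 and 5.35 in lung CD44low and 1.42 and 2.33 TPM in lung CD44high cells. Its level in lung CD44low cells overlapped that in MFP, so it did not follow Krt8. No call was made against MFP, the differences in LN CD44low (-1.58, adjusted p 0.0410) and lung CD44high cells (-1.30, adjusted p 0.0436) being below the fold limit.

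The other 44 keratins were not tested. Of these, 17 were listed at 0 in all 14 libraries and 26 stayed below 1 TPM, which leaves Krt6a. By class, 4 of 6 simple, 2 of 7 basal or activated, 3 of 13 suprabasal and 0 of the 23 hair and root sheath keratins were tested, and the 4 keratins in no class were not. Among the hair keratins 13 were listed at 0 everywhere and the highest, Krt83, reached 0.4 TPM in 1 BM CD44high library. The number of keratins above 0 TPM ran from 6 in a lung CD44high library to 19 in a BM CD44low library.

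A few bulk values could hold reads of other genes. Besides Krt8, transcripts of Krt14 match Krt17 at 91.0% over 756 bases, those of Krt16 match Gm11597 at 97.3% over 880 bases, and those of Krt18 match Gm5200 at 90.4% over 1267 bases. The partners stood at no more than 0.44, 0 and 0.11 TPM. Exons of Krt7, Krt8, Krt10 and Krt80 overlap genes of the opposite strand by 77, 101, 146 and 263 bases, and those genes reached at most 0.31, 3.14, 0.44 and 1.56 TPM. Whether the counting used strand is not given in the sources used here, so reads of such overlaps cannot be assigned with certainty.

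The comparison of CD44high with CD44low cells asked whether keratins go with the CD44 sort. In LN, 1 of 9 tested keratins was called, against 0.208% of all genes. Krt16 was lower in CD44high cells by -3.06 ± 0.46 (adjusted p 0.0271), a call lost in 9 of the 14 fits that left out 1 library, including all 4 that left out a lung library and changed no LN value. Krt7 was higher in both CD44high libraries than in both CD44low libraries of LN, by 2.44 ± 0.43, and missed the threshold (adjusted p 0.0551). Rescaling by the median ratio moved the share of higher calls in LN from 56.2% to 69.2% over all genes and left Krt16 called.

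In BM, limma called 0 of 9 keratins, against 0.104% of all genes, and 1 had an unadjusted p under 0.05. The fitted differences were 0.32 for Krt8, with a 95% interval from -1.29 to 1.93, and -0.34 for Krt18, with an interval from -1.78 to 1.10, and the libraries overlapped for both. The pair of BM CD44low libraries spread widely, at 1926 and 498 TPM for Krt8.

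In lung, 2 of 9 keratins were called, both higher in CD44high cells, against 11.3% of all genes. Krt18 was higher by 3.23 ± 0.65 (adjusted p 0.00421), and Krt8 was called higher over the 0 in CD44low cells (adjusted p 0.00343). The 2 lung CD44high libraries differed by several fold in both genes, and neither call held when only the 2 lung groups entered the fit. Krt7 (-0.35, adjusted p 0.604), Krt80 (-0.94, adjusted p 0.141) and Krt10 (-0.28, adjusted p 0.245) were not called.

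Over the 3 organs together, limma called 0 of 9 keratins for CD44, against 1.02% of all genes, while 6 had an unadjusted p under 0.05. Krt8 (1.53, adjusted p 0.0332), Krt18 (1.31, adjusted p 0.0388) and Krt16 (-1.12, adjusted p 0.0186) passed the adjusted p without the fold, and CD44high and CD44low libraries overlapped for all of them.

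The CD44 difference in the lung was also tested against that in LN and in BM. Against LN, 3 of 9 keratins were called, against 10.4% of all genes: Krt7 (-2.79 ± 0.61, adjusted p 0.0105), Krt80 (-2.08 ± 0.63, adjusted p 0.0433) and Krt16 (3.06, adjusted p 0.00888). The Krt16 value is the LN difference with its sign turned, since all lung libraries were at 0. The Krt7 call was lost without the first lung CD44low library, at -2.57 for its CD44 difference in Lung against CD44 difference in LN, and the Krt80 call in 11 of 14 such fits. Against BM, 2 of 9 were called, against 8.66% of all genes: Krt8 (3.43 ± 1.02, adjusted p 0.0495) and Krt18 (3.57 ± 0.91, adjusted p 0.0256). These were lost in 12 and 5 of the 14 fits, and both after rescaling by the median ratio.

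Between organs, with both CD44 classes averaged, lung was set against LN and BM. Here 5 of 9 keratins were called, against 12.7% of all genes, and 4 of them were lower, against 5.54%. Krt8 (-8.35 ± 0.44, adjusted p 2.19e-07), Krt18 (-6.16 ± 0.40, adjusted p 8.56e-07) and Krt7 (-7.45 ± 0.26, adjusted p 1.50e-08) were lower, as was Krt14, listed at 0 in lung (adjusted p 3.26e-08). Krt10, listed at 0 in LN and BM, was higher (adjusted p 4.17e-08). These 5 calls held in all 14 fits without a library. Rescaling changed the share of higher calls over all genes from 56.3% to 45.6% and left 1 keratin higher and 4 lower.

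BM was also set against LN. Of the 9 keratins 0 were called by limma, against 0.397% of all genes, with 3 at an unadjusted p under 0.05. Krt16 was lower in BM by -1.86 (adjusted p 0.0187), Krt23 higher by 1.62 (adjusted p 0.0252) and Krt79 higher by 1.23 (adjusted p 0.00222), all below the fold limit, and the libraries overlapped for Krt16 and Krt23 but not for Krt79. For Krt8 the difference was -0.25, with a 95% interval from -1.39 to 0.89.

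Other filament genes and the proteins that anchor keratins were measured for comparison. Of 15 further intermediate filament genes 9 were tested. Vim, which encodes the vimentin of mesenchymal cells, was at 33.5 and 14.5 TPM in MFP, 297 to 762 TPM over the LN and BM libraries and 1086 to 2294 TPM in the lung, and it was called higher than MFP in all 6 groups. Synm, which encodes synemin, was called higher in LN CD44high, BM CD44low and BM CD44high cells, and of the 9 only Vim and Synm were called higher than MFP. The 1 or 2 higher calls per group stand beside 2.07% of all genes in LN CD44low, 2.44% in LN CD44high, 3.99% in BM CD44low, 3.64% in BM CD44high, 11.2% in lung CD44low and 5.42% in lung CD44high cells. Nes and Lmnb1 were called lower in both lung groups and Lmnb2 in lung CD44high cells, where 7.62% (CD44low) and 8.03% (CD44high) of all genes were.

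All 13 genes of the plakins, plakophilins and other keratin linkers were tested. Of these 3 were lower in LN CD44low, 2 in LN CD44high, 3 in BM CD44low, 4 in BM CD44high, 6 in lung CD44low and 4 in lung CD44high cells, and none was called higher than MFP. Of all tested genes 2.72%, 3.68%, 3.17%, 4.03%, 7.62% and 8.03% were called lower in these groups. Dsp, the desmoplakin that ties keratin to desmosomes, was at 18.1 and 26.7 TPM in MFP, 2.66 to 3.50 TPM in LN and BM, and 0 in the lung. Pkp1 and Dsp were called lower in all 6 groups. In lung against LN and BM, 5 linkers were called lower (Dsp, Pkp1, Pkp2, Pkp3 and Ppl), against 5.54% of all genes, and 1 higher, against 7.13%, namely Plec, the plectin that also binds other filaments. The median difference over the linkers was -0.88 in LN CD44low, -1.12 in LN CD44high, -0.83 in BM CD44low, -1.37 in BM CD44high and -1.78 in lung CD44high cells, beside medians of all genes of -0.18, -0.30, -0.04, -0.34 and -0.04. In lung CD44low cells it fell on Evpl, listed at 0 there, and is not given.

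The summed luminal markers followed the order of the keratin sums over the groups below, and the summed fibroblast markers ran the other way. The 14 luminal epithelial genes summed to 3057 and 3148 TPM in MFP, 1048 to 1935 in LN and BM, 2.31 and 2.46 in lung CD44low and 188 and 306 TPM in lung CD44high cells, the last being almost all Gata3 (187 and 305 TPM). Of 12 tested, 5 or 6 were lower than MFP in LN and BM and 11 in lung CD44low cells, and in lung CD44high cells 10 were lower and Gata3 was higher. Of all genes 2.72% to 4.03% were called lower in the LN and BM groups, 7.62% in lung CD44low and 8.03% in lung CD44high cells. Cdh1, which defines epithelial junctions, was listed at 0 in both lung CD44low libraries. The 10 fibroblast genes summed to 0.5 to 1.31 TPM in MFP and 7.43 to 46.2 in LN and BM. They summed to 4789 and 5230.3 in lung CD44low and 103 and 216 TPM in lung CD44high cells. All 9 tested were called higher in lung CD44low cells, against 11.2% of all genes. Col1a2, Col3a1, Lum and Thy1 passed the filter only through those cells, so this count was partly fixed by the filter. In lung CD44high cells 4 were called higher, against 5.42% of all genes. In the LN and BM groups 1 to 3 were, against 2.07% to 3.99%. The part of these markers in the keratin results was not tested.

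Of 8 myoepithelial genes, 4 of 6 tested were higher than MFP in lung CD44low cells, namely Acta2, Cnn1, Mylk and Tagln. Oxtr and Trp63 were higher in lung CD44high cells. Of all genes 11.2% and 5.42% were called higher there. Cnn1 was also called higher in LN CD44high and BM CD44low cells, where 2.44% and 3.99% of all genes were. Acta2, Mylk and Tagln passed the filter only through lung CD44low cells and Oxtr only through lung CD44high cells. These counts were therefore partly fixed by the filter. In MFP, where Krt14 was highest, the 8 summed to only 0.98 to 1.09 TPM and Trp63, the regulator that defines basal epithelium, was listed at 0. Among 7 mesothelial genes Wt1 was at 18.2 to 22.6 TPM in all lung libraries and at 0 in all others, while Msln was lower than MFP in all 6 groups. The 8 lung epithelial genes summed to 0.25 to 0.79 TPM in the lung groups, the 6 macrophage genes to 10.3 to 39.2 TPM, and the 5 endothelial genes to at most 0.28 TPM in any group. The part of these cell types in the keratin results was not tested.

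The 3 single-cell libraries show how the counts were spread over cells, but with 1 library per group there is no test, and intervals are exact Poisson 95% intervals for levels and exact binomial 95% intervals for shares of cells, for counting error only. Kept barcodes had over 250 genes and mitochondrial counts below 10% of their total, namely 1236 of 3623 in lungH, 348 of 2808 in lungL and 2562 of 3297 in lymphH. The cell numbers that the study states for each library are lower than these and do not add up to the total it states, so the number it kept is unclear. The median cell had 557, 4011 and 585 counts. Cell names carry running numbers, so shared barcodes could not be counted, and 0 cell profiles were identical between libraries.

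Keratins took 4.70 (4.41 to 4.99), 1.75 (1.58 to 1.93) and 5.45 (5.25 to 5.65) of every 10000 counts in lungH, lungL and lymphH, from 1038, 388 and 2879 counts. Of the 53 genes 39 had no count in any kept cell, which allows a level of up to 0.0136, 0.0135 and 0.00567 per 10000 in the 3 libraries when 3 counts are taken as the limit. Krt8 and Krt18 made up 90.8% of keratin counts in lungH, 73.0% in lymphH and 37.6% in lungL. In contrast to the bulk TPM, where LN CD44high cells exceeded lung CD44high cells by far, the keratin total of lungH was 4.70 beside 5.45 in lymphH, with intervals that did not overlap. The isolates of the bulk and single-cell libraries are not tied to each other by the labels.

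**Figure D4:**
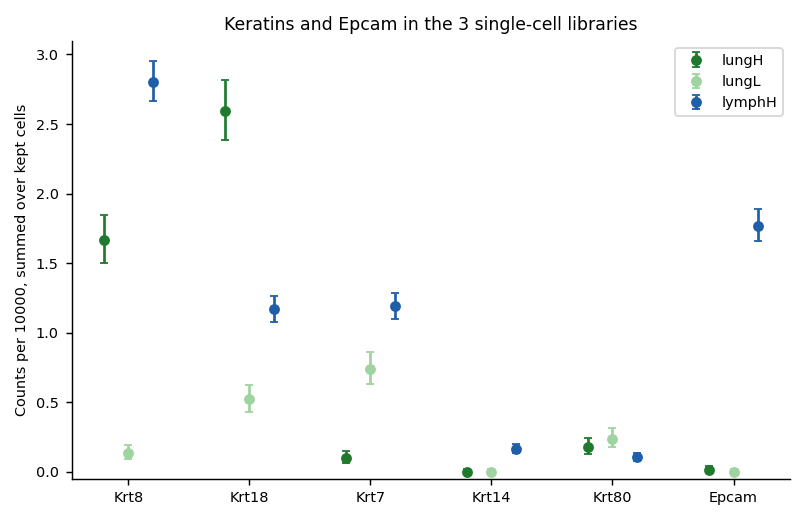
Counts per 10000 summed over kept cells (vertical) of 5 keratins and Epcam in lungH, lungL and lymphH, with exact Poisson 95% intervals. Krt18 is highest in lungH, Krt8, Krt7, Krt14 and Epcam in lymphH, and lungL is lowest for Krt8 and Krt18.

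Krt8 was at 1.67 (1.503 to 1.85) per 10000 in lungH, 0.135 (0.0911 to 0.193) in lungL and 2.81 (2.66 to 2.95) in lymphH. Krt18 was at 2.59 (2.38 to 2.81), 0.522 (0.432 to 0.627) and 1.17 (1.08 to 1.27) per 10000. Its order therefore differed from that of Krt8: lymphH had 1.68 (1.498 to 1.89) times the Krt8 level of lungH but 0.451 (0.402 to 0.506) times its Krt18 level. As in the bulk libraries, Krt18 exceeded Krt8 in lung-derived cells and Krt8 exceeded Krt18 in LN-derived cells.

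Krt7 was at 0.0995 (0.0624 to 0.151) per 10000 in lungH, 0.739 (0.630 to 0.861) in lungL and 1.19 (1.10 to 1.29) in lymphH, so that lungH had 0.135 (0.0822 to 0.211) times the level of lungL. It was the keratin with most counts in lungL. Krt14 had 87 counts in lymphH, 0.165 (0.132 to 0.203) per 10000, and no count in the kept cells of either lung library, at least 12.1-fold lower in lungH and at least 12.2-fold lower in lungL with 3 counts per library as the floor and without the counting error of the 87. The lungL barcodes left out did hold 12 Krt14 counts, 0.157 (0.0809 to 0.274) per 10000, so the lungL bound is for kept cells alone. Krt80 was at 0.176, 0.239 and 0.104 per 10000 in lungH, lungL and lymphH, and Krt10 had 33, 9 and 0 counts. The remaining keratins with counts had no more than 6 in any library. Epcam had 936 counts in lymphH, 3 in lungH and 0 in lungL.

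Keratin counts were gathered in part of the cells, as all counts were. In lymphH the 254 of 2562 cells with at least 2000 counts held 2032 of 2879 keratin counts and 3937032 of 5287425 counts of all genes. The 5% of cells with most keratin counts held 57.8% of them in lungH, 61.6% in lungL and 58.4% in lymphH, shares set without regard to depth. A keratin count was found in 23.1% of lungH, 27.3% of lungL and 32.2% of lymphH cells at their own depths. With every cell thinned to 250 counts, Krt8 was found in 3.40% (exact binomial 95% interval 2.46% to 4.57%) of lungH, 0.287% (0.00728% to 1.59%) of lungL and 6.48% (5.56% to 7.503%) of lymphH cells, against 11.3%, 3.45% and 19.2% unthinned. Krt18 was found in 4.94% (3.796% to 6.30%), 1.72% (0.635% to 3.72%) and 3.20% (2.55% to 3.96%) of thinned cells. For comparison, Col1a1, a fibroblast collagen, was found in 7.76% of thinned lungL cells and in 0% of lungH and 0.0781% of lymphH cells. Of the 339 lymphH cells with an Epcam count 202 had a keratin count, and of the 60 with a Krt14 count 47 had another keratin. These shares were not compared at equal depth. A keratin count was found in 92.9% of lymphH cells with at least 2000 counts and in 25.5% of those with fewer. The deeper cells also held 716 Epcam counts beside 220 in the others, and 69 Krt14 counts beside 18.

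Cells were clustered without any keratin gene, and clusters are called by the library that gave most of their cells. In lungH the shallow cluster 1 (911 lungH cells, median 538 counts) had 4.31 (3.76 to 4.92) and the deep cluster 2 (214 lungH cells, median 7130 counts) 4.77 (4.44 to 5.12) keratin counts per 10000. In lymphH the deep cluster 5 (269 cells, median 16087 counts) had 5.16 (4.93 to 5.38) and the shallow cluster 3 (521 cells) 7.40 (6.46 to 8.44). Keratin levels thus differed little between clusters of lungH, and they were highest in a shallow cluster of lymphH.

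In lungL the keratin counts were uneven. Of its 348 cells, 38 fell into lungH cluster 2, and these held 251 of the 388 keratin counts, or 7.05 (6.201 to 7.97) per 10000. The 142 and 139 cells of lungL clusters 1 and 2 had 1.05 (0.630 to 1.63) and 0.662 (0.544 to 0.798). The 38 cells had Krt18 at 2.19 (1.73 to 2.73) per 10000, near the 2.54 (2.31 to 2.80) of the lungH cells in that cluster. Their Krt7, at 3.26 (2.69 to 3.91), was however above the 0.0973 (0.0556 to 0.158) of those lungH cells, and their Krt8, at 0.758 (0.4995 to 1.10), below the 1.73 (1.54 to 1.95). In lungL as a whole 10 cells held 107 of the 164 Krt7 counts and 28 of the 30 Krt8 counts, so these values rest on few cells, which the intervals do not show.

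Col1a1 was at 0.0561 per 10000 in the 38 cells and at 15.1 and 4.12 in lungL clusters 1 and 2. These 2 clusters held 19 and 110 of the 388 keratin counts, and their keratin levels were below the 2.95 (2.58 to 3.36) per 10000 of the lungL barcodes left out, so how much of them came from RNA outside the cells was not tested. The barcodes left out stood at 4.85 (4.42 to 5.30) in lungH and 5.45 (4.76 to 6.22) in lymphH, so the levels of the lungH clusters and of lymphH cluster 5 given above were not above them either, and the same was not tested there. The 7.40 of lymphH cluster 3, the highest of the lymphH clusters, was above the barcodes left out, with intervals that did not overlap. The other shallow lymphH clusters, at 5.68 (5.03 to 6.39), 5.94 (5.13 to 6.85) and 6.68 (5.61 to 7.88), did overlap them. At a clustering resolution of 1.2 the lungL clusters ranged from 0.678 to 6.80 keratin counts per 10000, since 1 cluster with most cells from lungL reached the upper value.

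**Figure D5:**
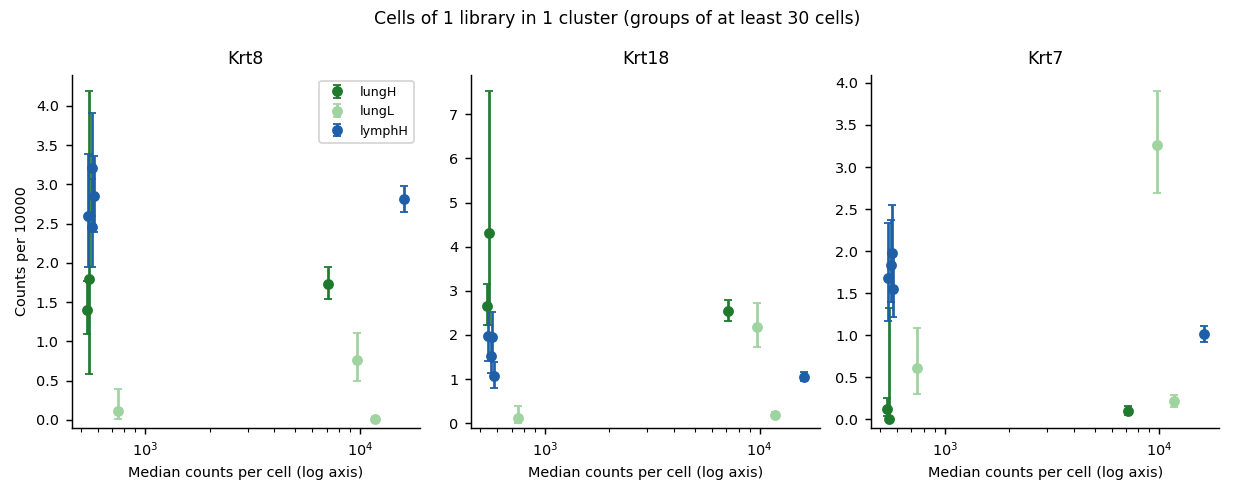
Krt8, Krt18 and Krt7 per 10000 counts (vertical) against the median counts per cell (horizontal, log axis) for the cells of 1 library in 1 cluster, with exact Poisson 95% intervals, for sets of at least 30 cells. The 38 lungL cells at a median of 9751 counts stand at 3.26 for Krt7, above every other set, and near lungH for Krt18.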

How the data were processed

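For bulk libraries the authors prepared cDNA by a SMART-seq2 variant. Alignment to mm10 was done with STAR and quantification with RSEM on the GENCODE v21 annotation, and the deposited TPM values have 1 common total and keep no read depth. Single-cell libraries came from the ddSeq platform, and the authors deposited unfiltered counts per gene and barcode, made with kallisto. Versions of STAR, RSEM and kallisto are not given in the sources used here.

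A gene was tested if 2 or more of the 14 libraries had it at 1 TPM or more. Values entered as log2(TPM + 1), a scale on which the change of low genes is understated, and were fitted with limma 3.58.1 in R 4.3.3 (7 group means, 7 residual degrees of freedom, trended prior variance, Benjamini-Hochberg adjustment over 15348 genes). Where both libraries of a group list a gene at 0, no fold is printed. The procedure was tested on simulated data with known changes. In fits without 1 library, the lone library of a group is assumed to vary like the other groups.

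Single-cell counts were summed per library or cluster and given per 10000, with a limit of 3 counts where none was seen. Without keratins, cells were clustered with scanpy 1.11.5 and igraph 0.11.9 (2000 variable genes, 20 components, 15 neighbours, resolution 0.8, seed 0). Scrublet called 1, 0 and 4 doublets in lungH, lungL and lymphH, so few that it cannot be taken to have worked, and doublets remain. Near copies were searched in GENCODE vM21 transcripts with blastn of BLAST 2.17.0 (at least 90% identity over 500 bases), and promoter windows came from RefSeq on GRCm38.p6, of which 1 stretch is not reported here. Gene positions are from GENCODE vM21 on GRCm38. Other tools were pandas 2.3.3, anndata 0.12.19, scipy 1.17.1 and numpy 2.4.6 in Python 3.11.15.

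Every keratin matching the symbol rule is a member. Tested members got their value in every library when called in at least 1 comparison or at 10 TPM or more, other members are given by counts and their highest value (Krt79 falls outside this rule and was described after its values were seen), and non-members come from fixed lists of filament, linker and marker genes. The members and lists were chosen with earlier results of these data known. Alternatives were a pseudocount of 0.1, no filter or a filter of 5 TPM, median-ratio scaling, a replicate block, each library left out, the unadjusted p, no fold limit and fits limited to the groups being compared. For single cells they were more than 500 genes, 20% or no mitochondrial limit, all barcodes, doublets removed, the mean of per-cell values, resolutions of 0.4 and 1.2 and, added after the data were seen, cells with at least 2000 counts.

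Replicate numbers were checked for pairing. Deviations of same-numbered libraries from their group means correlated between -0.19 and 0.17 over 21 pairs of groups. Whether same-numbered libraries of different groups share a mouse is not given in the sources used here, and the numbers were taken as names only.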

Additional observations from a re-analysis of the deposited data

Results flagged for a closer look

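The CD44 difference of 3 keratins in the lung differed from that in LN in the test of the difference itself. For Krt7 the CD44high minus CD44low difference in the lung, less that in LN, was -2.79 on the log2 scale. In the LN, Krt7 was at 59.1 and 133 TPM in CD44low and 465 and 505 TPM in CD44high cells, and in the lung it did not pass 0.69 TPM. For Krt16 the value was 3.06, which is the LN difference alone since Krt16 was listed at 0 in every lung library. For Krt80 the value was -2.08, with CD44high above CD44low cells in LN and below them in the lung. The Krt80 call was lost in 11 of 14 fits without 1 library and under 4 of 6 other alternatives, and the Krt7 call in 1 of 14 fits.

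The CD44 difference of 2 keratins in the lung was called different from that in BM, in tests that depended on the libraries and settings. For Krt8 the value was 3.43 and for Krt18 it was 3.57. Both genes were higher in lung CD44high than in lung CD44low libraries, and their libraries overlapped between the CD44 classes in BM. The Krt8 call was lost in 12 and the Krt18 call in 5 of 14 fits without 1 library, and both were lost after median-ratio scaling, without a filter on low TPM and with only the groups compared.

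Krt14 had counts in barcodes that the comparison of cells left out. In lungL, where no kept cell had a Krt14 count, the 2460 barcodes left out held 12 counts, or 0.157 (exact Poisson 95% interval 0.0809 to 0.274) per 10000. In lungH the 2387 barcodes left out held 0, and in lymphH the 735 barcodes left out held 12, or 0.298 per 10000.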

How the results depend on the processing

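Of 34 calls of single keratins, 27 held in all 14 fits without 1 library and 23 held under every alternative in which they were tested. Krt10 did not pass the filter of 5 TPM, so its calls were not tested there. Over 678 values of called keratins under alternatives none changed direction and 62 lost the call. The cause of the changes below was not tested. With a pseudocount of 0.1 the keratins called were 5 in each of LN CD44high, BM CD44low and BM CD44high cells against MFP, 2 for CD44 in LN, 1 over 3 organs, 8 for lung against LN and BM and 3 for BM against LN. Without a filter on low TPM, calls for CD44 in LN and for the CD44 difference of lung against BM were 0, and with at least 5 TPM they were 2 for CD44 in LN. Median-ratio scaling left 0 for the CD44 difference of lung against BM. It moved the median of all genes from -0.30 to 0.02 in LN CD44high, from -0.34 to 0.04 in BM CD44high and from -0.18 to 0.02 in LN CD44low cells against MFP, and from 0.20 to -0.01 for lung against LN and BM. The unadjusted p gave 2 for CD44 in LN and 5 for the CD44 difference of lung against LN. Without a fold limit there were 3 over 3 organs, 8 for lung against LN and BM and 3 for BM against LN. For the CD44 difference of lung against LN there were 5. When only the groups compared were fitted, calls were 1 in each of LN CD44low, LN CD44high and BM CD44low cells against MFP. They were 0 for CD44 in LN, CD44 in lung and the CD44 difference of lung against BM. Without 1 library each, calls ranged from 1 to 2 for LN CD44high against MFP, 0 to 3 for CD44 in LN and 0 to 1 for BM against LN. For the CD44 difference of lung they ranged from 1 to 4 against LN and from 0 to 2 against BM. With the replicate block, calls were 0 for CD44 in LN and 1, Krt18, for the CD44 difference of lung against BM. The block changed no other count of calls by over 1.5 times and also ended the Krt80 call for the CD44 difference of lung against LN. Nothing shows that the replicate numbers pair the libraries. For all keratins per 10000 counts, the mean of per-cell values was 4.41 in lungH and 6.27 in lymphH, all barcodes gave 2.06 in lungL, and lymphH was at 5.17 with more than 500 genes and at 5.16 with at least 2000 counts per cell. The read depth, of which only a minimum is stated, limits the bulk values near 0, and 1 library per group limits the single-cell values.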

Other observations

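Barcodes left out of the single-cell comparison by the gene and mitochondrial limits held keratin counts as well, at 4.85 (exact Poisson 95% interval 4.42 to 5.30) per 10000 in lungH, 2.95 (2.58 to 3.36) in lungL and 5.45 (4.76 to 6.22) in lymphH. In lungL this was above the 1.75 of the kept cells, and Krt8 stood at 0.574 (0.417 to 0.771) in the barcodes left out against 0.135 in kept cells. In lungH and lymphH the intervals of the barcodes left out held the values of the kept cells.

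Kept cells with at least 2000 counts had 4.81 keratin counts per 10000 in lungH, 1.77 in lungL and 5.16 in lymphH, and those with fewer had 4.37, 1.35 and 6.27. In lymphH the deeper cells were lower in Krt18 (1.05 against 1.52) and Krt7 (1.01 against 1.73) but not in Krt8 (2.82 against 2.77).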
